A study of Rattus norvegicus with 9 samples.

Results

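The Id genes and the bone morphogenetic protein (BMP) signalling genes around them were followed in RNA sequencing of the rat lumbar spinal cord. The 10 genes were Id1, Id2, Id3, Id4, Smad6, Smad7, Smad9, Bmpr1a, Bmpr1b and Bmpr2. They were chosen by name, and each name stood at 1 of the 34890 loci listed. The identifiers of the Id genes in the table are ENSRNOG00000021750 (Id1), ENSRNOG00000007237 (Id2), ENSRNOG00000026124 (Id3) and ENSRNOG00000016099 (Id4). The samples were the ipsilateral L3-L6 cord of male wild-type Sprague Dawley rats, 3 in each of 3 groups. JA rats had a sham operation and saline. SNI rats had spared nerve injury, in which the tibial and common peroneal nerves are tied and cut while the sural nerve is left intact, and saline. PLM rats had the same injury and the middle dose of paeoniflorin and liquiritin by gavage, with paeoniflorin at 20.65 mg/ml and, by the study's methods, liquiritin at 3.98 mg/ml. The liquiritin labels of the 3 replicates read 3.98, 3.99 and 3.100 mg/ml, and whether the doses differed is not known. Saline or drug was given for 21 days after the operation. Age is not given in the labels, and the labels call the samples biological replicates without saying more. The p-values therefore set group differences against the spread within groups of the samples fitted.

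BMP ligands bind a complex of type I receptors (Bmpr1a, Bmpr1b) and a type II receptor (Bmpr2) on the cell surface, and the receptors phosphorylate SMAD proteins that enter the nucleus with Smad4. Id1, Id2, Id3 and Id4 are classic targets of that signal. Id proteins are helix-loop-helix proteins without a DNA-binding region. They pair with E proteins such as Tcf3, Tcf4 and Tcf12 and keep these from binding DNA, and in the nervous system they are known for holding neural precursors and glia in an undifferentiated state. Smad6 and Smad7 are inhibitory SMADs that close a feedback loop on the receptors.

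The stretches before the start sites of the 4 Id genes are shown because 3 of these genes carry the differences that passed the test, so that what the 4 share or lack upstream can be read directly. They are the 250 bases before each annotated start, 5′ to 3′ on the gene's strand, from RefSeq on assembly GRCr8. Capitals mark the CCAAT box (CCAAT, or ATTGG on the other strand), a common promoter element.
Id1 (chr3:161671314-161671563, plus strand): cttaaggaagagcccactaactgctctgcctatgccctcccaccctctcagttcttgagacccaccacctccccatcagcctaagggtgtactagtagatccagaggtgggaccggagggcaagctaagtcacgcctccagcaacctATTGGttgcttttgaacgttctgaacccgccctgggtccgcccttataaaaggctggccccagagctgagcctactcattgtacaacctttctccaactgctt
Id2 (chr6:47470996-47471245, minus strand): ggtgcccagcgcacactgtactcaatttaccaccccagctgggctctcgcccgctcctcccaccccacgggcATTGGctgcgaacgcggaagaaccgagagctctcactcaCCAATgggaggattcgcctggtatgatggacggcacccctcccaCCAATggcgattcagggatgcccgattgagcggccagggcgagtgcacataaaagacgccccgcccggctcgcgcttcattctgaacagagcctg
Id3 (chr5:153656041-153656290, plus strand): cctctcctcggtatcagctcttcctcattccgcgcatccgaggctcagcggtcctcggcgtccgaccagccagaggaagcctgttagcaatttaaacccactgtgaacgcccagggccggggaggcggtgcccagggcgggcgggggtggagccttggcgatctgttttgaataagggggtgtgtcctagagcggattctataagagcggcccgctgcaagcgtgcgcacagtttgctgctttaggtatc
Id4 (chr17:16598294-16598543, minus strand): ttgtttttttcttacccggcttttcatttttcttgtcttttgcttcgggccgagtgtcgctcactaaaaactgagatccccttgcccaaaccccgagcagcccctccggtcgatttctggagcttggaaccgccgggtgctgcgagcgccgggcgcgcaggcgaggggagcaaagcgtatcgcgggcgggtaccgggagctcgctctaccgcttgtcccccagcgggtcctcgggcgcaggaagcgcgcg
The 4 stretches are not alike in the letters searched. Id2 holds 3 CCAAT boxes, at 178, 139 and 95 bases before its start. Id1 holds 1, at 103 bases, and the windows of Id3 and Id4 hold none. A CCAAT box is found in 34% of 33469 rat windows of the same length. Neither GGCGCC, a GC-rich SMAD-binding element present in 8.69% of windows, nor the SMAD box CAGAC, present in 42.9%, occurs in any of the 4 on either strand. GC content was 54.8% in Id1, 62.8% in Id2, 61.2% in Id3 and 62.8% in Id4. Of the 10 genes 8 had a promoter entry, and Smad6 and Bmpr1b did not. The Smad7 window holds 2 GGCGCC matches, at 96 and 36 bases, and that of Smad9 holds 1 GGCGCC at 15 bases and 1 CAGAC at 243 bases. These matches describe the sequence and are not evidence of binding. Only 250 bases were searched, so the absence of a match says nothing of sites outside the window.

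Expression is given in TPM, a transcript's share of all transcripts in a sample after division by its length, so that levels can be compared between genes. Over the 9 samples the Id genes stood above the signalling genes. Mean TPM was 51.3 for Id3, 48.3 for Id1, 41.3 for Id4 and 34.2 for Id2. It was 13.1 for Smad7, 11.4 for Bmpr2 and 10.3 for Bmpr1a, and 3.67 for Smad9, 2.58 for Smad6 and 0.963 for Bmpr1b. In this order the sample ranges of neighbouring genes overlapped, except those of Bmpr1a and Smad9. Bmpr1b was the only one of the 10 with a mean under 1 TPM.

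Posterior Hox genes, which mark the lumbar level, were mostly expressed: Hoxc10 was between 31.0 and 46.9 TPM, but Hoxa10 between 0 and 1.41 TPM. The forebrain genes Emx1 and Tbr1 reached at most 0.06 TPM, while Neurod6 was between 1.64 and 2.97 TPM. Samples correlated with each other at r between 0.946 and 0.966 across 15503 genes. The share of TPM on 13 mitochondrial protein genes was 25.3 to 32.8% in JA, 23.7 to 26.1% in SNI and 31.3 to 32.8% in PLM. TPM adds up to the same sum in every sample, and most genes were lower in PLM: across all genes the median change from SNI to PLM was -0.21 on the log2 scale, and 85% of genes were below 0. Each comparison is therefore given as deposited and also median-centred, with each sample set to the median of its log2 values. Centring brought that median to 0.04. One JA library stood apart. JA replicate 3 had 6286 summed TPM of 4 Schwann cell markers, against 503 and 60.5 in the other JA samples, and 1881 summed TPM of 12 astrocyte markers, against 3684 and 2908. It was also the lowest JA sample for 8 of the 10 genes, all but Id1 and Id3. Among the injured rats the Schwann sums ran from 416 to 3569 TPM in SNI and from 182 to 2631 TPM in PLM.

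The comparison of PLM with SNI asks what the drug pair changed in injured rats. Id2, Id3 and Id4 were lower in PLM, and the mean of Id2 in PLM was 37.1% of its mean in SNI. Id4 stood at 53.1%, Id3 at 68.9% and Id1 at 72.3%. Of the signalling genes none passed the test, although their means in PLM were 73.7 to 85.1% of SNI for the 5 expressed above 1 TPM. In the cord as a whole, fewer cells of a type and less RNA per cell cannot be told apart. Changes are log2 fold changes of TPM + 1 with the standard error (SE), tested with limma and adjusted over all 15474 loci tested, and they understate the change of low genes.

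Id2, the Id gene with the largest change, was at 51.39, 51.96 and 37.1 TPM in SNI and at 19.31, 15.37 and 17.5 TPM in PLM. The JA samples were at 47.88, 40.53 and 26.58 TPM. Every PLM sample thus lay below every other sample, and SNI and JA overlapped. The means were 46.8 ± 8.42 in SNI, 17.4 ± 1.97 in PLM and 38.3 ± 10.8 in JA (SD, n = 3). From SNI to PLM the log2 fold change was -1.37 (SE 0.15), with an adjusted p of 0.00786 by limma. Median-centred it was -1.12 (SE 0.15), with an adjusted p of 0.0443. Id2 passed the adjusted threshold on both scales and also the study's thresholds, an unadjusted p under 0.05 with a log2 change of more than 1 either way.

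Id4, which is expressed mainly in neural cells among the Id family, was at 51.28, 57.22 and 52.48 TPM in SNI, and at 26.48, 24.45 and 34.56 TPM in PLM. In JA it was at 40.57, 50.15 and 34.25 TPM. The SNI samples were the highest and stood clear of both other groups, and PLM and JA overlapped at the edge, where PLM replicate 3 lay just above JA replicate 3. The group means were 53.7 ± 3.14, 28.5 ± 5.35 and 41.7 ± 8.01 TPM in SNI, PLM and JA (SD, n = 3). The change in PLM versus SNI was -0.90 (SE 0.13), with an adjusted p of 0.0158 by limma. On the centred scale it was -0.66 (SE 0.12), and the adjusted p of 0.0834 missed the threshold. As deposited, the call was also lost without PLM replicate 1 (adjusted p 0.0654), without PLM replicate 2 (0.0538) and without SNI replicate 1 (0.0597).

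Id3, a gene of vessel walls as well as glia, was at 55, 61.59 and 55.74 TPM in SNI, and at 31.91, 43.19 and 43.59 TPM in PLM. In JA it was at 49.91, 67.03 and 53.53 TPM. The PLM samples were again below all 6 others, and the SNI samples lay inside the range of JA. The log2 fold change was -0.54 (SE 0.13), with an adjusted p of 0.0442 by limma, and -0.29 (SE 0.11) after centring, with an adjusted p of 0.259. Id3 lost its call when any 1 of the 6 samples was left out, with adjusted p values between 0.0641 and 0.106.

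Id1, the member of the family most often used as a readout of BMP signalling, was at 58.46, 48.31 and 59.34 TPM in SNI, at 35.27, 36.94 and 47.96 TPM in PLM and at 43.65, 58.32 and 46.4 TPM in JA. The lowest SNI sample stood at 48.31 and the highest PLM sample at 47.96, so the groups were separate by a narrow gap. The log2 fold change of -0.46 (SE 0.14) had an adjusted p of 0.0685 by limma, and the centred value of -0.22 (SE 0.12) one of 0.432. Id1 therefore did not pass on either scale, although without PLM replicate 3 its adjusted p was 0.0494.

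**Figure D1:**
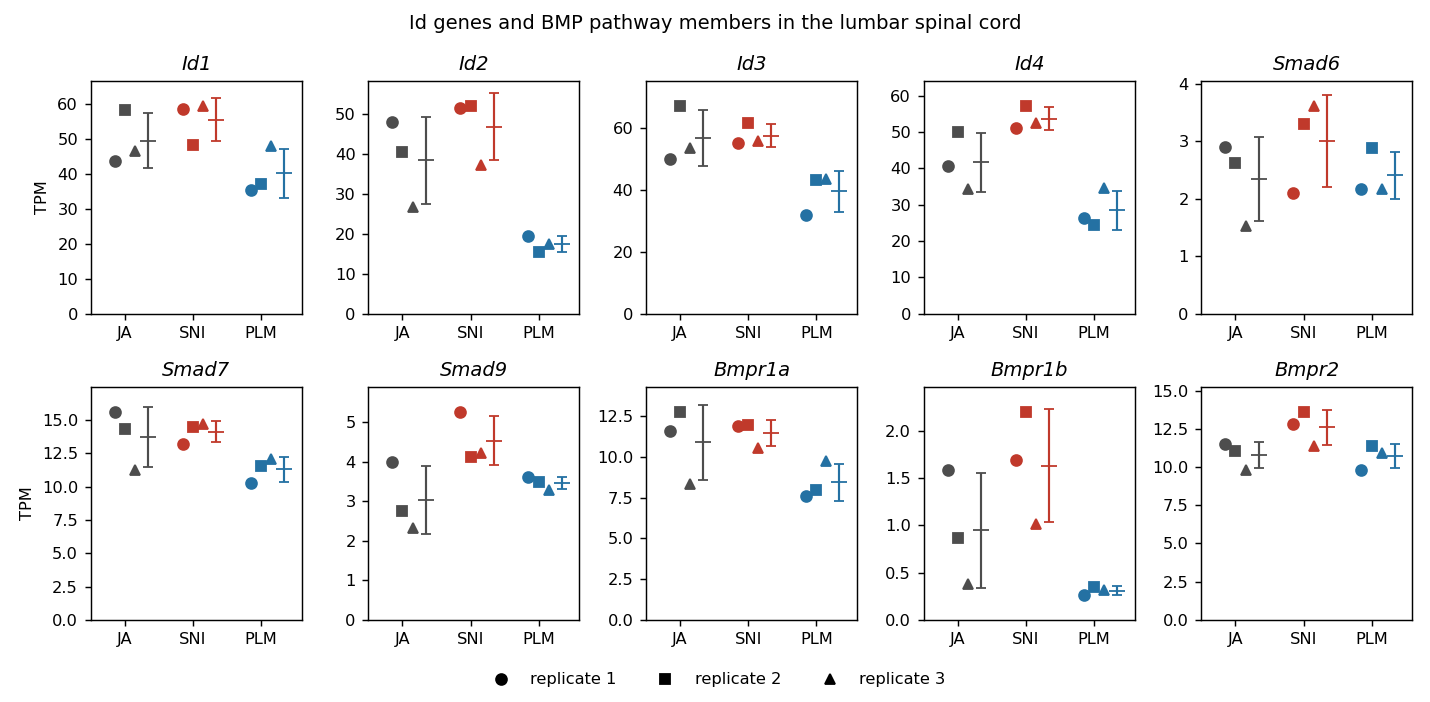
TPM of each gene in each sample of JA, SNI and PLM (points, shaped by replicate number), with the group mean and SD (n = 3) beside the points and a vertical axis that starts at 0 in each panel. The 3 PLM samples of Id2 lie between 15.37 and 19.31 TPM, below all other samples, while the groups of Smad6 and Bmpr2 overlap.

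The changes of the receptors spanned a wide range. Bmpr1a, the widely expressed type I receptor, was at 11.92, 11.98 and 10.57 TPM in SNI and at 7.63, 8.01 and 9.76 TPM in PLM. All PLM samples were below all SNI samples, with a log2 fold change of -0.40 (SE 0.11) and an adjusted p of 0.0537 by limma. The centred value was -0.16 (SE 0.09), with an adjusted p of 0.414. Bmpr1b, the second type I receptor, was low throughout. It was at 1.69, 2.2 and 1.01 TPM in SNI, at 0.26, 0.35 and 0.32 TPM in PLM and at 1.59, 0.87 and 0.38 TPM in JA, so that PLM lay below every other sample and its mean was 19% of that in SNI. The filter on a mean of 1 TPM kept Bmpr1b out of the test of PLM versus SNI. Without the filter its change was -0.98 (SE 0.18), with an adjusted p of 0.0397 by limma, and -0.75 after centring, with an adjusted p of 0.0999. Bmpr1b was called in 1 of the 5 settings that could fit it, and when TPM was rescaled without the mitochondrial genes its adjusted p was 0.0944. Bmpr2, the type II receptor, was at 12.8, 13.59 and 11.38 TPM in SNI and at 9.82, 11.39 and 10.91 TPM in PLM, and these ranges overlapped. Its change of -0.21 (SE 0.09, adjusted p 0.149) was that of the median gene.

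Of the SMADs, the inhibitory Smad7 was at 13.22, 14.5 and 14.74 TPM in SNI and at 10.3, 11.53 and 12.1 TPM in PLM. The groups were separate, and the change of -0.30 (SE 0.09) had an adjusted p of 0.0619 by limma. Smad9, which carries the BMP signal and is itself raised by it, was at 5.25, 4.12 and 4.22 TPM in SNI and at 3.6, 3.49 and 3.29 TPM in PLM. These groups were separate too, with a change of -0.30 (SE 0.11) and an adjusted p of 0.106. Smad6, the other inhibitory SMAD, overlapped between groups, at 2.1, 3.3 and 3.61 TPM in SNI and at 2.17, 2.88 and 2.16 TPM in PLM, with a change of -0.22 (SE 0.19, adjusted p 0.408). After centring the changes of Smad6, Smad7 and Smad9 were 0.03, -0.05 and -0.06, with adjusted p values of 0.958, 0.768 and 0.829. That of Bmpr2 was 0.03, with an adjusted p of 0.868. The values of Smad6 and Bmpr2 thus turned from below to above 0 with centring, and no direction is given for either.

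In total 3 of the 9 genes tested were lower in PLM than in SNI at an adjusted p under 0.05, where 13.6% of all genes tested were. At the study's thresholds it was 1 of 9, Id2, where 1.42% of all genes were lower. In 7 of the 9 every PLM sample lay below every SNI sample, the exceptions being Smad6 and Bmpr2, and this held for 41.9% of all genes. After centring 1 of 9 was lower, Id2, where 0.685% of all genes were. The centred groups did not overlap for 3 of 9, Id2, Id3 and Id4, where 9.73% of all genes had PLM wholly below SNI. The median change of the 9 genes was -0.40 as deposited, where the median of all genes was -0.21, and -0.16 after centring, where that of all genes was 0.04. Smad6, Smad9 and Bmpr2 were within 1 SE of the median gene on both scales. Over all genes, 2110 were lower and 38 higher as deposited, and 106 lower and 20 higher after centring.

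**Figure D2:**
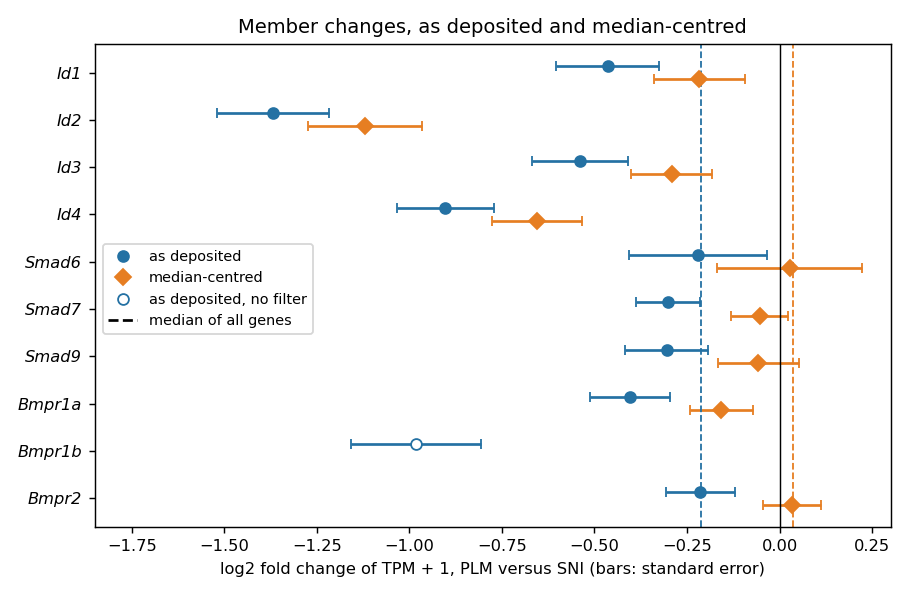
Log2 fold change of TPM + 1 in PLM versus SNI for each gene (points, with bars of 1 SE), as deposited (circles) and median-centred (diamonds), with dashed lines at the median of all genes on each scale. Id2 lies farthest from the dashed line on both scales, at -1.37 and -1.12, and Smad6 and Bmpr2 lie on it. The open circle is Bmpr1b, fitted without the filter on low values.

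The comparison of SNI with JA asks what the injury changed, and no gene of the 10 passed the test. Over all 15557 loci 0 were called with limma (0%), 1104 had an unadjusted p under 0.05 (7.1%), and of the 10 genes these were Id4 and Smad9. For both every SNI sample stood above every JA sample, and the share of all genes that did so was not counted. Id4 had a log2 fold change of 0.37 (SE 0.14), with an adjusted p of 0.614, and 0.25 after centring, with an adjusted p of 0.889. Smad9, at 4, 2.76 and 2.33 TPM in JA, had a change of 0.47 (SE 0.18), with an adjusted p of 0.614, and 0.35 after centring, with an adjusted p of 0.889. Id2 had a change of 0.31 (SE 0.24), which was 0.07 without JA replicate 3. That of Id1 was 0.16 (SE 0.14) and that of Id3 0.02 (SE 0.13). The other values were 0.46 for Bmpr1b, 0.26 for Smad6, 0.20 for Bmpr2, 0.09 for Bmpr1a and 0.05 for Smad7, with adjusted p values between 0.614 and 0.941 over the 10 genes. The values of Id3, Smad7 and Bmpr1a turned below 0 after centring, at -0.10, -0.07 and -0.04. Without JA replicate 3 the change of Id4 was 0.24 and that of Smad9 0.35, with an adjusted p of 0.836 for both.

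The comparison of PLM with JA sets treated injured rats against sham rats, and here too none of the 9 genes tested passed, where 0.0195% of all genes (3 of 15349) did with limma. The groups of this comparison and the previous ones are shared: the PLM samples are those set against SNI, and the JA samples are those set against SNI. Id2, Id3 and Id4 had an unadjusted p under 0.05, 3 of 9, where 11.8% of all genes did. Id2 had a change of -1.06 (SE 0.21), with an adjusted p of 0.272, and was the 1 of 9 past the study's thresholds in the lower direction, where 0.658% of all genes were. Its PLM samples lay below all JA samples. Without JA replicate 3 the change of Id2 was -1.30, with an adjusted p of 0.0552. The change of Id3 was -0.51 (SE 0.16, adjusted p 0.368) and that of Id4 -0.53 (SE 0.18, adjusted p 0.374). After centring the changes of Id2, Id3 and Id4 were -0.94, -0.39 and -0.41, with adjusted p values of 0.430, 0.498 and 0.498. The change of Id1 was -0.30 (SE 0.16, adjusted p 0.511). That of Bmpr1a was -0.32, that of Smad7 -0.25, that of Smad9 0.17, that of Smad6 0.04 and that of Bmpr2 -0.01. The last was 0.11 after centring.

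Other genes of the pathway were taken from lists written for the purpose, and PLM was set against SNI. Their counts of genes called lower as deposited stand beside the 13.6% of all genes tested, and nothing is read from a count near that share. Of 13 BMP ligands only 3 reached a mean of 1 TPM, Bmp2, Bmp4 and Bmp6, so the cord held little RNA of most ligands. Bmp6 fell, from 8.09 ± 1.36 to 4.54 ± 0.599 TPM (log2 fold change -0.71, adjusted p 0.0317 by limma). After centring its change was -0.46, with an adjusted p of 0.198. Bmp4, the most abundant ligand over the 9 samples, was at 10.82, 1.16 and 10.88 TPM in SNI and at 11.22, 11.3 and 9.61 TPM in PLM, so that 1 SNI sample was far below the rest.

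The list of BMP antagonists and extracellular modulators had 16 genes, of which 13 were tested and 4 fell as deposited, where 13.6% of all genes did. None was called higher, and none was called after centring. Noggin (Nog), a secreted protein that traps BMP ligands, went from 7.49 ± 0.545 to 4.34 ± 0.342 TPM (log2 fold change -0.67, adjusted p 0.0147). Nbl1, a DAN-family antagonist and the most abundant of the list, went from 52.8 ± 8.47 to 29.6 ± 3.77 TPM (-0.81, adjusted p 0.0230). The others were Fstl1 (-0.67, adjusted p 0.0220) and Bambi, a decoy receptor (-0.70, adjusted p 0.0445). Of the other receptors and co-receptors 7 of 9 were tested and 2 fell. Rgma, a BMP co-receptor anchored to the membrane, was at 17.41, 18.92 and 18.13 TPM in SNI and at 10.06, 9.26 and 10.84 TPM in PLM, with no overlap. Its change was -0.79 (SE 0.08), with an adjusted p of 0.00597 by limma, and -0.55 after centring, with an adjusted p of 0.0496. It was the only gene of the pathway lists that passed on both scales. Neo1, the receptor of Rgma, fell by 0.49 on the log2 scale (adjusted p 0.0254) as deposited, and its value after centring was -0.25 (adjusted p 0.171). Eng, the most abundant of this list, had a value of -0.07.

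Of the 9 signal-carrying SMADs and their regulators, all tested, 2 fell as deposited and none after centring, so that the count as deposited was near the 13.6% of all genes. These were Smad1, which carries the BMP signal (-0.38, adjusted p 0.0332), and the repressor Ski (-0.34, adjusted p 0.0350), whose values after centring were -0.13 and -0.09. Ppm1a, a phosphatase and the most abundant of them, was at -0.34 with an adjusted p of 0.0618, and at -0.09 after centring. Among 4 other BMP target genes 3 were tested and 1 fell, Hey1, from 12.6 ± 0.605 to 8.21 ± 1.09 TPM (-0.57, adjusted p 0.0258), with -0.32 and an adjusted p of 0.148 after centring. In the TGF-beta branch 1 of 11 tested fell, Tgfb2 (-0.56, adjusted p 0.0398), and none after centring, where 13.6% of all genes fell as deposited, and the abundant receptor Tgfbr2 was at -0.05. Of the bHLH partners of Id proteins none of the 7 tested was called, and the TPM of Olig1, the most abundant, averaged 238 in SNI and 198 in PLM. Bmp6, Nog, Fstl1, Bambi, Neo1, Smad1, Ski and Tgfb2 were named after their values were seen. No gene of these 7 lists was called higher in PLM, and none was called in either direction in SNI versus JA or PLM versus JA.

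As medians of the genes tested, the lists stood on both sides of the all-gene value. As deposited the median was -0.18 for ligands, -0.20 for antagonists, -0.14 for other receptors, -0.34 for SMADs and regulators, -0.57 for other targets, -0.31 for the TGF-beta branch and -0.22 for bHLH partners, where all genes had -0.21. After centring the same medians were 0.07, 0.05, 0.11, -0.09, -0.32, -0.06 and 0.03, where all genes had 0.04.

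**Figure D3:**
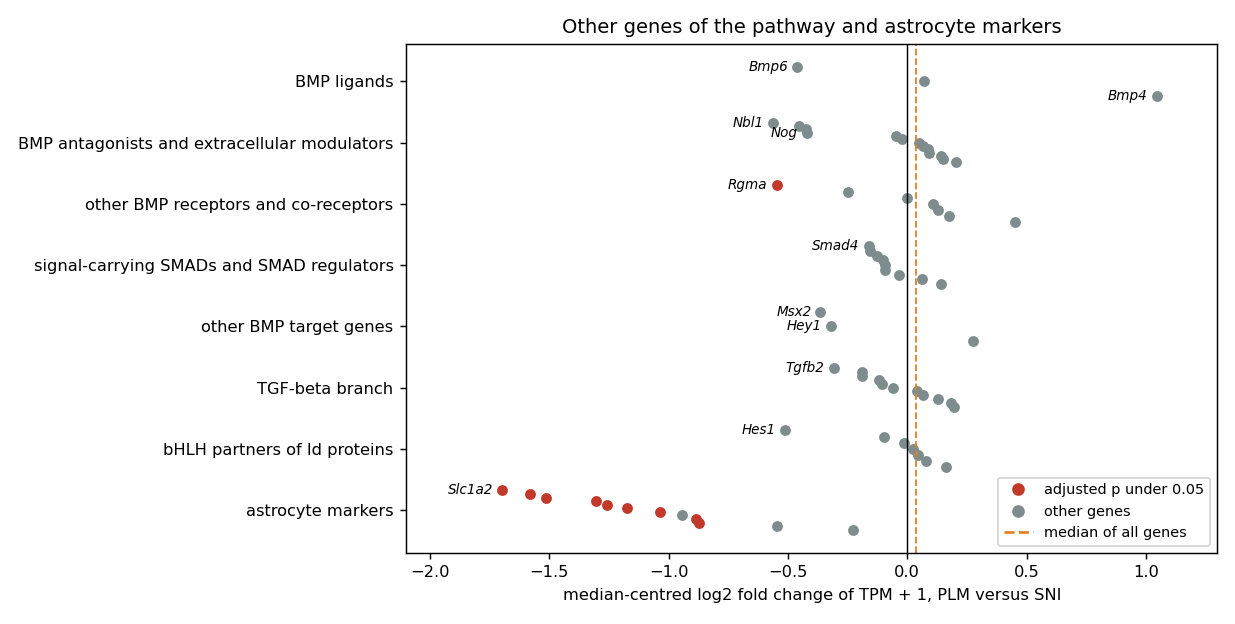
Median-centred log2 fold change of TPM + 1 in PLM versus SNI for the tested genes of each pathway list and of the astrocyte markers (points, red where the adjusted p by limma was under 0.05), with a dashed line at the median of all genes. Most genes of the pathway lists scatter around that line with Rgma in red at -0.55, and 9 of the 12 astrocyte markers are red, all at the left.

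Markers of astrocytes, which express Id genes, were mostly lower in PLM as well. Of 12 astrocyte markers, all tested, 11 were lower in PLM than in SNI as deposited, where 13.6% of all genes tested were. After centring 9 were lower, where 0.685% of all genes were. The median changes were -1.35 as deposited and -1.11 after centring. Gfap, the intermediate filament of astrocytes, went from 588 ± 28.3 to 241 ± 22.1 TPM, and Slc1a2, the main glutamate transporter, from 40.3 ± 2.37 to 9.86 ± 2.35 TPM. The other markers lower on both scales were Slc1a3, Gja1, Gjb6, Aldh1l1, Fgfr3, Slc4a4 and Ntsr2. Aqp4, and Aldoc, which was the most abundant, passed only as deposited. Their changes after centring were -0.95 (adjusted p 0.0749) and -0.55 (adjusted p 0.0978). Sox9 was not called and overlapped. The summed TPM of the list was 3204 to 3541 in SNI, 1539 to 1867 in PLM and 1881 to 3684 in JA. Aldoc and Gfap made up most of this sum. No defining marker was at 0. The part of these markers in the change of the Id genes was not tested.

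The Id genes are also expressed in endothelium. None of its 9 markers tested was called, and their summed TPM was 383 to 415 in SNI, 412 to 477 in PLM and 442 to 568 in JA, so that the PLM sums reached above those of SNI. None of 11 neuronal markers was called, with sums of 4519 to 5659 TPM in SNI and 3878 to 4481 TPM in PLM, without overlap. The sums of 7 oligodendrocyte markers did not overlap either, at 45940 to 48120 TPM in SNI and 49680 to 50810 TPM in PLM. The part of the neuronal and oligodendrocyte markers was not tested. None of 7 oligodendrocyte markers and 4 Schwann cell markers was called, and 1 of 7 microglial markers and 2 of 6 meningeal and fibroblast markers were lower as deposited, where 13.6% of all genes were, and none of these after centring. No marker of oligodendrocyte precursors, pericytes, ependyma or blood was called. As deposited, the PLM and SNI values of the 3 oligodendrocyte precursor markers did not overlap, with PLM the lower group. The same held for 41.9% of all genes tested, so nothing is read from it. The sums of these markers were 19.7 to 25.6 TPM in SNI and 16.4 to 17.1 TPM in PLM. Their median changes were -0.38 as deposited and -0.14 after centring, and their part was not tested either. The summed TPM of 5 blood markers was 3201 to 5700 in SNI and 6190 to 8496 in PLM, without overlap, and their part in the change of the Id genes was not tested. Across the 9 samples the 3 PLM samples and JA replicate 3 had the 4 lowest astrocyte sums, and the same 4 samples had the 4 lowest values of Id2. Id4 had its 4 lowest values in the same samples, from 24.45 to 34.56 TPM. For Id3 the 3 PLM samples were the lowest, followed by JA replicate 1, and for Id1 the 3 lowest samples were PLM replicates 1 and 2 and JA replicate 1.

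**Figure D4:**
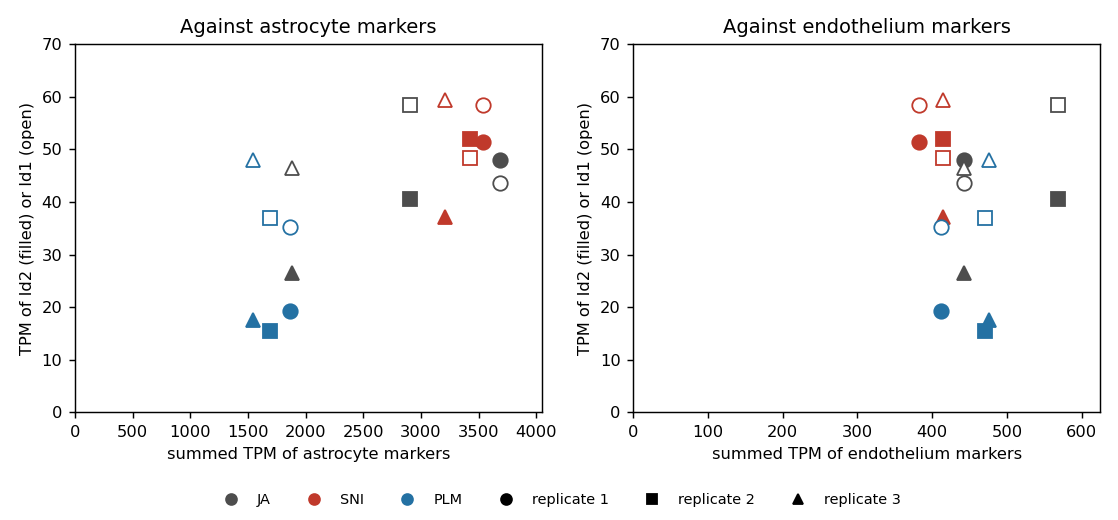
TPM of Id2 (filled) and Id1 (open) in each of the 9 samples (coloured by group, shaped by replicate number) against the summed TPM of astrocyte markers (left) and of endothelium markers (right). The 4 lowest Id2 values, from 15.37 to 26.58 TPM, belong to the 3 PLM samples and JA replicate 3. These 4 samples also have the lowest astrocyte sums, while Id1 and the endothelium sums show no such grouping.

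The genes with profiles most like each Id gene over the 9 samples were ranked by Pearson's r on median-centred log2 values among 12445 genes with a symbol. These correlations are a description over samples that share libraries and group differences. For Id2 they were Klhl25 (0.987), Farp1 (0.987), Fads1 (0.984), Slc25a18 (0.984) and Myorg (0.982). For Id4 they were Nfix (0.978), Tmbim6 (0.967), Septin11 (0.939), Rnase4 (0.939) and Rpap1 (0.932). For Id3 they were Phf20l1 (0.951), Rtkn2 (0.942), Igfbp5 (0.917), Erlin1 (0.917) and Sulf1 (0.911). For Id1 they were Afg3l1 (0.894), Smarcc1 (0.886), Pcca (0.873), Tcof1 (0.871) and Rpain (0.858). No gene was shared between the 4 lists of 5, and none was in the astrocyte list. That list holds only 12 genes, so this says little about the cell types that express the genes named.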

How the data were processed

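RNA sequencing of 9 rat spinal cord samples was analysed, 3 each of JA, SNI and PLM, grouped by their labels. The authors removed adaptors and low-quality reads, with fastp 0.19.5 among the tools in the submitters' processing notes, mapped the reads with HISAT2 and deposited StringTie expression values, which are TPM by their sums per sample. The notes name GRCh38.p13, a human assembly, while 32883 of 34890 loci carry rat Ensembl identifiers, so the rat build is not given in the sources used here. TPM keeps no depth, so depth and counting error are unknown.

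Groups were compared in pairs on log2(TPM + 1) with limma 3.58.1 in R 4.3.3, using a variance trend without covariates. Loci whose mean over the 6 samples compared reached 1 TPM were tested, with Benjamini-Hochberg adjustment over all of them. Genes were called at an adjusted p under 0.05. The study's methods used DESeq2, which needs counts, and it was not run. Named were all 10 genes, per list the most abundant gene and those called on both scales in PLM versus SNI, and the 5 genes most like each Id gene, leaving out clone and locus names. A few list genes outside this rule were named after their values were seen. Of 170 list genes 167 were found. The genes and lists were chosen with earlier results of these data known. The fits were tested on simulated data.

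Alternatives were median-centring, quantile normalization, rescaling without 13 mitochondrial genes, a pseudocount of 0.1, no filter, 1 TPM in every sample, 1 fit of all 9 samples, a block for the replicate number, and fits that left out 1 sample in turn.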

Additional observations from a re-analysis of the deposited data

How the results depend on the processing

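With 3 samples a group and no depth in TPM, small changes and those of low genes such as Bmpr1b are the least certain. In PLM versus SNI, Id2 passed the adjusted threshold (limma) in all 15 settings, with log2 fold changes from -1.52 to -1.12 and adjusted p from 0.00278 to 0.0443. Id4 passed in 8 (adjusted p 0.00714 to 0.0834), Id3 in 3 (0.0304 to 0.263), Id1 in 2 (0.0489 to 0.432) and Bmpr1a in 1 (0.0474 to 0.419). Bmpr1b could be fitted in 5 settings and passed in 1, with no filter (0.0397 to 0.118). The other fits kept the filter, which Bmpr1b passed without PLM replicate 1, 2 or 3 or without the mitochondrial genes. The number of the 10 genes called was 3 in the analysis reported, 1 after median-centring, after quantile normalization and without the mitochondrial genes, 5 with at least 1 TPM in every sample, and 1 to 3 when a sample was left out (1 without PLM replicate 1, PLM replicate 2 or SNI replicate 1). With the replicate block it was 1, and all genes called fell from 2148 to 152. The replicate numbers did not pair the samples, as deviations of same-numbered PLM and SNI samples correlated at 0.0333, -0.0216 and -0.00814. The number past the study's thresholds was 1, and 2 without the mitochondrial genes or, when a sample was left out, 1 to 2 (2 without PLM replicate 2 or 3). All genes called were 126 after centring, 155 with quantile normalization, 283 without the mitochondrial genes, 1258 with no filter, 471 in the fit of all 9 samples and 275 to 1494 with a sample left out.

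Values that changed sign were small and in no case called. In PLM versus SNI, Smad6 was 0.027 and Bmpr2 0.033 after centring, and Bmpr2 0.039 with quantile normalization. In SNI versus JA, Id3 was -0.097, Smad7 -0.071 and Bmpr1a -0.035 after centring, -0.095, -0.080 and -0.037 with quantile normalization, and Id3 -0.065 and Smad7 -0.034 without the mitochondrial genes. With a sample left out, Id3 ran from -0.061 to 0.15, Smad7 from -0.076 to 0.14 and Bmpr1a from -0.080 to 0.20. In PLM versus JA, Bmpr2 was 0.11 after centring, 0.12 with quantile normalization and 0.044 without the mitochondrial genes. With a sample left out it ran from -0.070 to 0.046 and Smad6 from -0.15 to 0.17. None of the 10 genes was called in SNI versus JA or PLM versus JA in any setting. All genes called in SNI versus JA, 0, were 1 with no filter and 1 to 8 with a sample left out. In PLM versus JA, 3, they were 5 with a pseudocount of 0.1, 1 with no filter, in the fit of all 9 samples and with the replicate block, and 3 to 22 with a sample left out (22 without JA replicate 3). The cause of these differences was not tested. DESeq2, the test of the study's methods, was not run because the values are not counts.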
